A study of Homo sapiens with 4 samples.

Results

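The 10 genes described here encode cytosolic heat shock chaperones and their partners, and were chosen by name as targets of the heat shock factors: HSPA1A, HSPA1B, HSPA8, HSPH1, HSP90AA1, HSP90AB1, DNAJB1, DNAJB4, HSPB1 and BAG3. All 10 were found among the 62700 genes of the count table, and all 10 passed the filter on low counts, which left 18973 genes to test. RNA came from HEK293T, a human embryonic kidney line, here as what the labels call a stable clone carrying the CMV-V5-MITO-PRADA construct, a V5-tagged labelling construct for the mitochondrial matrix driven by the CMV promoter. The labelled group (2 libraries) received 100 µM of the uridine analogue s4U for 5 h, then 0.5 mM alkyne phenol with s4U for 30 min, then 10 mM D-amino acid for 30 min. The unlabelled group (2 libraries) received the same s4U and alkyne phenol and no D-amino acid. Both groups therefore share the construct, s4U and alkyne phenol, and the design text describes the material as enriched after labelling. In such material a higher level in the cells and a larger captured share cannot be told apart, nor can the number of cells and the RNA per cell.

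Cytosolic chaperones hold unfolded proteins and pass them through cycles of ATP binding and release. HSP70 proteins bind short exposed stretches of a client, J-domain proteins bring clients to HSP70 and start ATP hydrolysis, and HSP110 and BAG proteins release the nucleotide again. HSP90 proteins act later on kinases, hormone receptors and other clients, and small heat shock proteins hold clients without ATP. When unfolded proteins accumulate, heat shock factor HSF1 forms trimers that bind heat shock elements, repeats of the unit NGAAN in alternating orientation, and these genes are transcribed at a higher rate.

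The heat shock elements are shown because the 10 genes were listed by name as targets of the heat shock factors. The shares below therefore describe that list and do not test it. The pattern of 2 opposed units, GAANNTTC or TTCNNGAA, each of which reads the same on both strands, was searched in the 250 bases before each annotated start in RefSeq (GRCh38.p14). The search found it for 8 of the 10 genes and at 8 of their 16 starts, against 14% of 27305 genes and 11.6% of 35116 starts. Runs of 3 units (GAANNTTCNNGAA or TTCNNGAANNTTC, which contain the shorter pattern) were found for 3 of the 10 genes, HSPA8, HSP90AA1 and HSP90AB1, against 0.557% of all genes. BAG3 and HSPH1 held neither pattern in this window. In the stretches below, given 5′ to 3′ on each gene's strand, capitals mark the matched letters nearest the start, and the HSPA8 stretch is left out because it lies wholly within exons annotated for HSPA8 itself.
HSPA1A: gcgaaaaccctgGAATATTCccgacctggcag
HSPA1B: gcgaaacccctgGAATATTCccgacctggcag
DNAJB1: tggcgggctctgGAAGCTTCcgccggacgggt
DNAJB4: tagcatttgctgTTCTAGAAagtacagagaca
HSP90AA1: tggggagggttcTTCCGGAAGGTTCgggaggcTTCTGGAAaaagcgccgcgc
HSP90AB1: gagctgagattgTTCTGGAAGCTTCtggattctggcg
HSPB1: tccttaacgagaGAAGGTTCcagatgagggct

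The HSPA1A stretch lies at chr6:31815425-31815456 and the HSPA1B stretch at chr6:31827621-31827652, both on the plus strand, with the first capital 106 and 105 bases before the start. The others lie at chr19:14518425-14518456 (DNAJB1, minus), chr1:78004829-78004860 (DNAJB4, plus), chr14:102087093-102087144 (HSP90AA1, minus), chr6:44247819-44247855 (HSP90AB1, plus) and chr7:76302479-76302510 (HSPB1, plus). A match is a description of the letters and not a measured binding site.

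Libraries held 9380258 and 12287451 assigned fragments in the labelled group and 8172347 and 5771795 in the unlabelled group. Mitochondrial transcripts took 27.0% and 30.9% of labelled and 9.04% and 10.4% of unlabelled fragments, so levels are given as CPM, a gene's count relative to the TMM-scaled total of its library, which sets libraries to a common level over most genes. Unlabelled replicate 2, the shallowest library, differed from unlabelled replicate 1 by a median absolute log2 difference of 0.257 over genes, against 0.141 between the labelled libraries and 0.184 to 0.202 between unlabelled replicate 1 and the labelled libraries. Values of the 10 genes that moved by over 1.5 times without an unlabelled library, and calls of other named genes that changed, are therefore also given without it. A fit without 1 library leaves a single library in that group. Its p-values take the spread from the other group alone, and calls from such fits carry this limit throughout. All 5 markers of the line (PAX2, LHX1, KRT8, KRT18 and VIM) had more than 3 counts in all 4 libraries. Summed markers of blood cells reached 0.673 to 0.933 CPM in labelled and 0.223 to 1.51 CPM in unlabelled libraries, with HBB and CD3E at 0, and those of endothelium and fibroblasts 0.466 to 1.15 and 1.06 to 1.45 CPM, with DCN at 0. HBA1 was not absent, with 8 and 7 fragments in labelled and 1 and 9 in unlabelled libraries. COL3A1 had 3 and 10 fragments in labelled and 12 and 4 in unlabelled libraries. The other markers of these sets had at most 3 fragments in any library. Replicates are biological by their titles, with nothing on how cultures were kept apart, and the p-values speak of the spread among these 4 libraries alone, which may be technical.

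Labelled against unlabelled libraries is the only contrast in the labels. None of the 10 genes passed an edgeR quasi-likelihood adjusted p under 0.05, where 0.285% of all genes tested did. HSPA1A, a stress-inducible HSP70, came closest and differed most, with a 3.04-fold higher level in labelled libraries (adjusted p 0.0934). Its near-identical neighbour HSPA1B and the summed pair differed far less, with log2 fold changes of 0.14 and 0.20. DESeq2 called HSPA1A and no other of the 10. It called 0.161% of 39689 genes higher, a wider set than that of edgeR because low counts were not filtered beforehand. The 39689 are all genes with a DESeq2 p-value, including any left without an adjusted p, which could not be called. The DESeq2 and edgeR shares thus have unlike bases. Before adjustment 3 of the 10 had p under 0.05, all higher (HSPA1A, BAG3 and DNAJB4), against 5.67% of all genes higher at that level. Levels in both labelled libraries lay above both unlabelled ones for 6 of the 10, against 22.2% of all genes, and 0 lay below, against 22.4%. The log2 fold change was positive for 9 of the 10, against 48% of all genes, with a median of 0.27 against -0.013 over all genes. The median of the 10 was 0.42 without unlabelled replicate 1 and 0.080 without unlabelled replicate 2. Neither the direction nor the overlap counts are independent of one another across genes, because all 10 were read in the same 4 libraries.

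**Figure D1:**
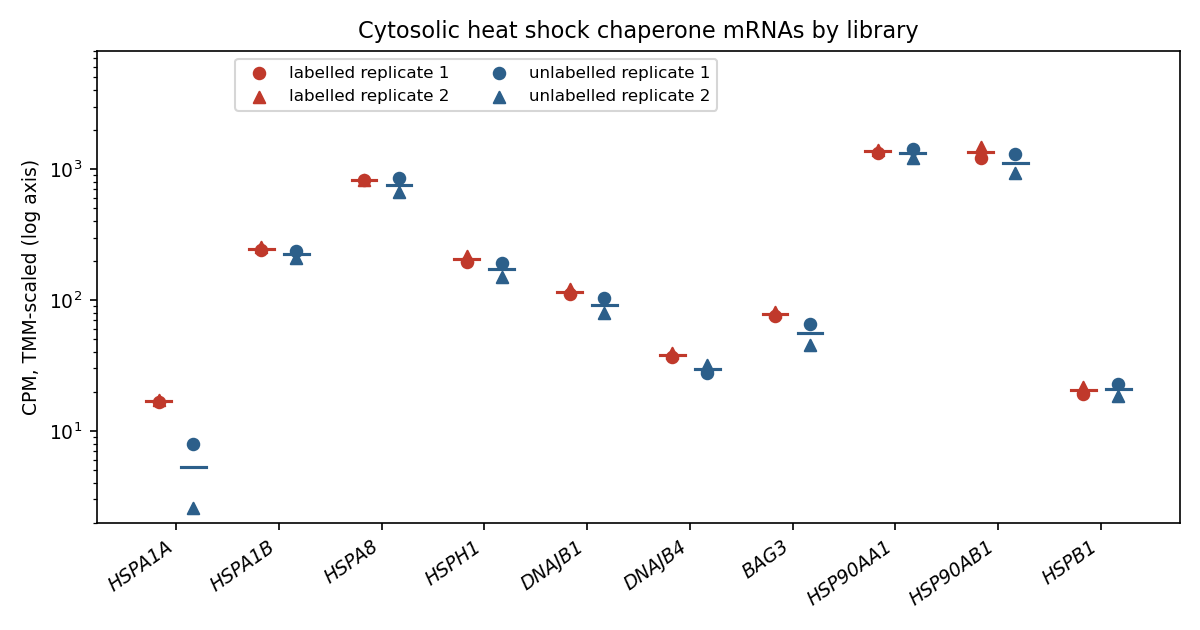
TMM-scaled CPM on a log axis for the 10 chaperone genes, with 1 point per library (circles replicate 1, triangles replicate 2; labelled left of unlabelled) and a bar at each group mean. HSPA1A is the lowest of the 10 and shows the widest gap, with labelled libraries at 16.7 and 17.1 CPM and unlabelled libraries at 8.02 and 2.57 CPM. Unlabelled replicate 2 is the lowest of the 4 libraries for 9 of the 10 genes.

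HSPA1A (ENSG00000204389, chromosome 6, 31815543 to 31817946, plus strand) had 143 and 178 fragments, or 16.7 and 17.1 CPM, in labelled libraries, against 72 and 17 fragments, or 8.02 and 2.57 CPM, in unlabelled libraries. The labelled libraries were close to each other and above both unlabelled libraries, which themselves differed widely. This made a log2 fold change of 1.60 ± 0.33 (SE), for which edgeR gave an adjusted p of 0.0934. Over the other settings that kept all 4 libraries the adjusted p lay between 1.35e-10 (edgeR with no filter) and 0.0894 (edgeR without mitochondrial genes), and DESeq2 gave 0.0250. The size rested on single unlabelled libraries: the log2 fold change was 2.74 without unlabelled replicate 1 and 1.08 without unlabelled replicate 2. Those fits leave out the wide difference between the unlabelled libraries, so their p-values are not given here.

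HSPA1B (ENSG00000204388, chromosome 6, 31827738 to 31830254, plus strand), the neighbouring gene for an HSP70 of nearly the same sequence, held far more of the assigned fragments. It had 240 and 253 CPM in labelled and 238 and 209 CPM in unlabelled libraries. The labelled libraries were the higher ones, but labelled replicate 1 exceeded unlabelled replicate 1 by little. The log2 fold change was 0.14 ± 0.14 (edgeR adjusted p 0.729), and it was 0.27 without unlabelled replicate 1 and 0.052 without unlabelled replicate 2.

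The sequences of the pair show how little separates their reads. Their coding sequences of 1923 bases (GENCODE 29, GRCh38) differ at 4 positions and are identical over a run of 1709 bases. The window with most differences, coding bases 1831 to 1920 counted from the first base of the start codon, holds 3 of the 4, shown here in capitals.
HSPA1A: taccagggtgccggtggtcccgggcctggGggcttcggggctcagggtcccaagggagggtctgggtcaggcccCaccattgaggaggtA
HSPA1B: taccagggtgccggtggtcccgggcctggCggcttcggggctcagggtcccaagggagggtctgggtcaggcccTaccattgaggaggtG
These windows lie at chr6:31817587-31817676 and chr6:31829781-31829870. Of all stretches of 150 bases in the HSPA1A transcript, 67.1% also occur in another gene's transcript, in each case in HSPA1B, and for HSPA1B 70.0% do, with 66.0% in HSPA1A. At 50 bases these shares were 72.6% and 73.5%. Reads that map to both copies were not counted, so both counts come from the remaining stretches. In addition, 920 of the 2517 exon bases of HSPA1B belong as well to the unnamed gene ENSG00000285565 on the same strand, whose own count was 0 in all 4 libraries, and fragments over shared bases stay unassigned.

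Summed, the pair had 256 and 270 CPM in labelled libraries and 246 and 211 CPM in unlabelled libraries. The groups did not overlap, with labelled replicate 1 close above unlabelled replicate 1. Fitted as 1 gene, the pair gave 0.20 ± 0.14 on the log2 scale (edgeR adjusted p 0.611), with 0.35 without unlabelled replicate 1, where it passed the threshold (adjusted p 0.0115), and 0.10 without unlabelled replicate 2. HSPA1A took 6.51% of the pair's fragments in labelled replicate 1 (95% Wilson interval 5.55 to 7.62%) and 6.35% in labelled replicate 2 (5.50 to 7.31%), against 3.26% in unlabelled replicate 1 (2.59 to 4.08%) and 1.21% in unlabelled replicate 2 (0.760 to 1.94%). The intervals of the labelled libraries lay above those of the unlabelled libraries, which did not overlap each other either. This share does not depend on how libraries are scaled. The group means were 6.43% ± 0.114 in labelled and 2.24% ± 1.44 in unlabelled libraries (SD, n = 2 each), a difference of 4.19 percentage points, and the two-sided exact permutation test gave p = 0.333, the smallest that 2 against 2 libraries allow.

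**Figure D2:**
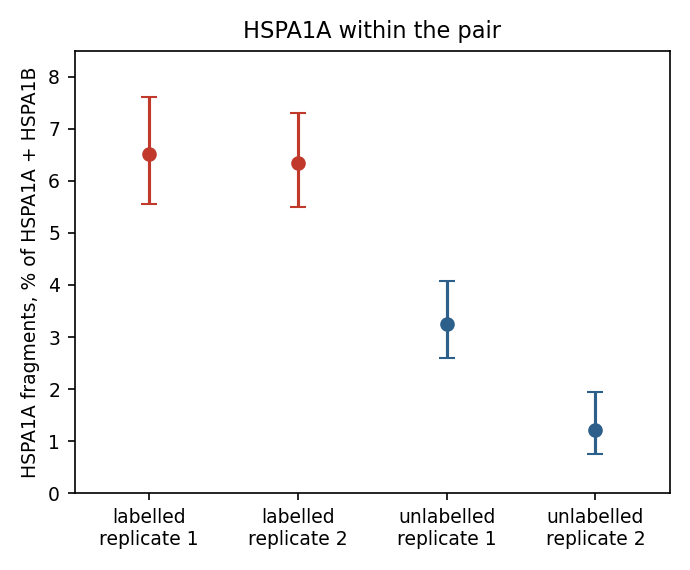
HSPA1A fragments as a percentage of HSPA1A and HSPA1B fragments together, 1 point per library with its 95% Wilson interval, labelled libraries in red and unlabelled libraries in blue. The labelled points lie at 6.51% and 6.35% and the unlabelled points at 3.26% and 1.21%.

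HSPA8 (ENSG00000109971, chromosome 11, 123057489 to 123063230), the constitutive HSP70 of the cytosol, had 820 and 829 CPM in labelled and 851 and 662 CPM in unlabelled libraries. Unlabelled replicate 1 was the highest of the 4 libraries and unlabelled replicate 2 the lowest, so the groups overlapped. The log2 fold change was 0.12 ± 0.18 (edgeR adjusted p 0.826), and it was 0.35 without unlabelled replicate 1 and -0.042 without unlabelled replicate 2. Of its 4849 exon bases, 730 are shared with other annotated genes, among them the small nucleolar RNAs SNORD14C and SNORD14D. HSPH1 (ENSG00000120694, chromosome 13, 31134973 to 31162388) encodes the HSP110 that releases nucleotide from HSP70, and had 197 and 217 CPM in labelled against 193 and 150 CPM in unlabelled libraries. Both labelled libraries were above both unlabelled ones, by a narrow margin for the replicates numbered 1. Its log2 fold change was 0.27 ± 0.15 (edgeR adjusted p 0.519), with 0.49 without unlabelled replicate 1, where it passed the threshold (adjusted p 9.99e-05), and 0.11 without unlabelled replicate 2.

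The J-domain co-chaperones of HSP70 were both higher in the labelled libraries without passing the test. DNAJB1 (ENSG00000132002, chromosome 19, 14514769 to 14560391), the main heat-inducible HSP40, had 110 and 121 CPM in labelled against 104 and 80.3 CPM in unlabelled libraries, with no overlap between the groups. Its log2 fold change was 0.32 ± 0.15 (edgeR adjusted p 0.436), with 0.56 without unlabelled replicate 1 and 0.15 without unlabelled replicate 2, and 561 of its 8188 exon bases overlap TECR or MIR639 on the opposite strand. DNAJB4 (ENSG00000162616, chromosome 1, 77979175 to 78017964), a related HSP40, had 36.7 and 39.6 CPM in labelled against 27.5 and 31.7 CPM in unlabelled libraries. Here unlabelled replicate 1 was the lowest library, which set DNAJB4 apart from the other 9 genes, where unlabelled replicate 2 was lowest. Its log2 fold change was 0.37 ± 0.13 (edgeR adjusted p 0.336), with 0.30 without unlabelled replicate 1 and 0.48 without unlabelled replicate 2 (adjusted p 0.00735).

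BAG3 (ENSG00000151929, chromosome 10, 119651380 to 119677819), which couples HSP70 to small heat shock proteins and to selective autophagy, had 75.6 and 80.9 CPM in labelled against 66.0 and 45.6 CPM in unlabelled libraries. The groups did not overlap. Its log2 fold change of 0.48 ± 0.16 (edgeR adjusted p 0.314) was the second highest of the 10. Without unlabelled replicate 1 it was 0.81 (adjusted p 5.09e-10) and without unlabelled replicate 2 it was 0.25 (adjusted p 0.174).

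Both HSP90 genes overlapped between the groups. HSP90AA1 (ENSG00000080824, chromosome 14, 102080742 to 102139699), the inducible HSP90, had 1331 and 1406 CPM in labelled against 1434 and 1215 CPM in unlabelled libraries, so both labelled libraries lay between the unlabelled ones. Its log2 fold change was 0.047 ± 0.20 (edgeR adjusted p 0.951), with 0.20 without unlabelled replicate 1 and -0.062 without unlabelled replicate 2. HSP90AB1 (ENSG00000096384, chromosome 6, 44246166 to 44253888), the constitutive HSP90, had 1214 and 1474 CPM in labelled against 1305 and 926 CPM in unlabelled libraries. Its highest library was labelled and its lowest unlabelled, and unlabelled replicate 1 exceeded labelled replicate 1. The log2 fold change was 0.27 ± 0.22 (edgeR adjusted p 0.657), and it was 0.57 without unlabelled replicate 1 (adjusted p 0.00176) and 0.047 without unlabelled replicate 2.

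HSPB1 (ENSG00000106211, chromosome 7, 76302673 to 76304295), a small heat shock protein that holds unfolded clients, was the only one of the 10 with a log2 fold change below 0. It had 19.1 and 21.6 CPM in labelled and 22.9 and 18.6 CPM in unlabelled libraries, and the groups overlapped. The log2 fold change was -0.032 ± 0.16 (edgeR adjusted p 0.961), with 0.17 without unlabelled replicate 1 and -0.16 without unlabelled replicate 2.

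**Figure D3:**
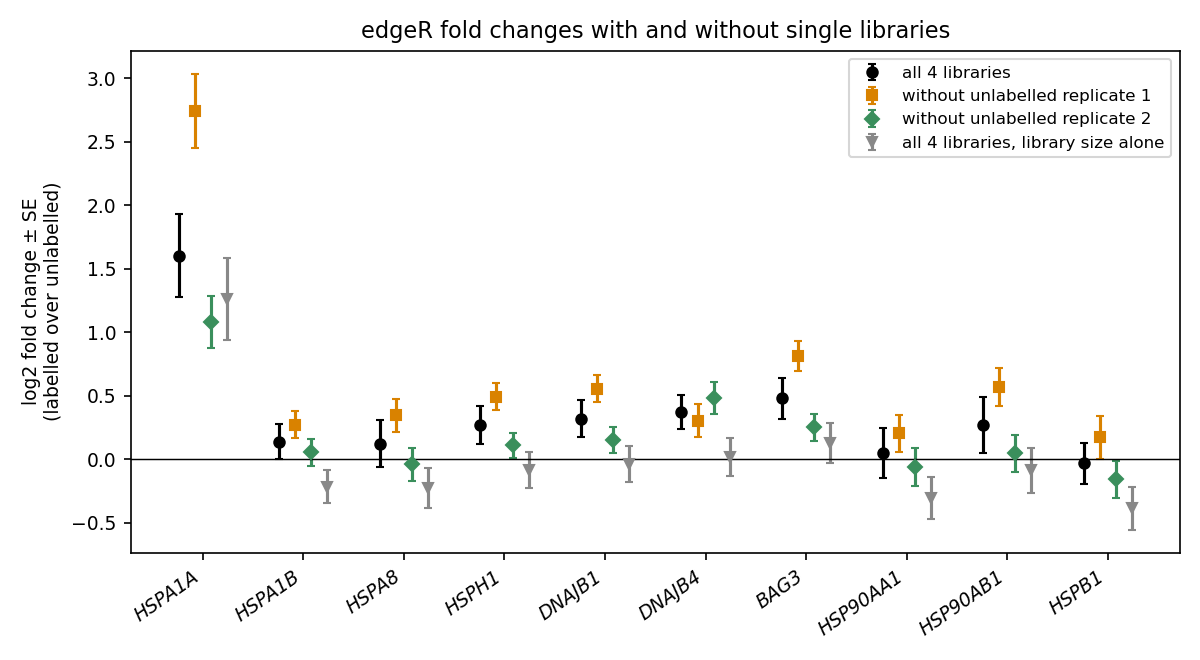
edgeR log2 fold changes of labelled over unlabelled libraries for the 10 genes, with bars of 1 SE, for all 4 libraries, without unlabelled replicate 1, without unlabelled replicate 2, and with scaling by library size alone. HSPA1A (1.60, 2.74, 1.08 and 1.26), BAG3 (0.48, 0.81, 0.25 and 0.13) and DNAJB4 (0.37, 0.30, 0.48 and 0.015) stay above 0 in all 4 settings. With library size alone, however, BAG3 (SE 0.16) and DNAJB4 (SE 0.15) lie within 1 SE of 0. All of the 10 genes but DNAJB4 have a higher value without unlabelled replicate 1 than without unlabelled replicate 2.

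The count of calls moved with the unlabelled library that was left out. Without unlabelled replicate 1, when unlabelled replicate 2 stands alone and is assumed to vary like the labelled libraries, 6 of the 10 genes were called higher, but so were 11.6% of all genes. They were HSPA1A, BAG3, HSPH1 and HSP90AB1, with HSPA8 at 0.35 on the log2 scale (edgeR adjusted p 0.0452) and DNAJB1 at 0.56 (adjusted p 1.07e-05). Without unlabelled replicate 2 the calls were HSPA1A and DNAJB4, 2 of the 10 against 2.06% of all genes. HSPA1A was called in 8 of the 10 other settings, as the single call outside those that leave out an unlabelled library, and the exceptions were DESeq2 size factors in the edgeR fit (adjusted p 0.0669) and the fit without mitochondrial genes (0.0894). That 1 call of 10 stood against 0.367% of all genes called higher without labelled replicate 1, 0.236% without labelled replicate 2, 0.364% with library size alone and 0.738% with the replicate number as a block. The setting with no filter, which also called HSPA1A, called 183 genes higher over all genes, against 51 in the main fit. Its share of all genes was not computed. With scaling by library size alone, the median over all genes was -0.37, and 6 of the 9 genes with positive values then had values below 0 (HSPA1B, HSPA8, HSPH1, HSP90AA1, HSP90AB1 and DNAJB1), while HSPA1A stood at 1.26 (edgeR adjusted p 0.0269). The median of the 10 genes was then -0.087. A change of scaling moves all genes by nearly the same amount, so its place above the median of all genes is no further result.

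The 10 genes together took 0.371% and 0.377% of assigned fragments in labelled libraries and 0.467% and 0.384% in unlabelled libraries. As a share of nuclear fragments alone they took 0.508% and 0.546% in labelled and 0.513% and 0.428% in unlabelled libraries. The direction of the difference thus turned with the denominator, at -0.0512 percentage points over all assigned fragments and 0.0563 over nuclear fragments. The difference over all assigned fragments was -0.00946 without unlabelled replicate 1 and -0.0929 without unlabelled replicate 2. HSP90AA1, HSP90AB1 and HSPA8 supplied 82.9% and 83.2% of these fragments in labelled and 84.5% and 83.9% in unlabelled libraries, so these 3 genes largely set the sum.

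Per kilobase of exon, HSP90AB1 was the highest of the 10 in both groups, at 451 ± 61.8 CPM per kb in labelled and 374 ± 90.0 in unlabelled libraries (SD, n = 2 each). HSP90AA1 followed at 269 ± 10.5 and 260 ± 30.4 CPM per kb in labelled and unlabelled libraries, then HSPA8 at 170 ± 1.35 and 156 ± 27.6, and HSPA1B at 97.8 ± 3.68 and 88.8 ± 8.30. A lower tier ran in labelled libraries from BAG3 at 28.6 CPM per kb through HSPH1 (24.7), DNAJB1 (14.1), HSPB1 (12.6) and DNAJB4 (10.3) to HSPA1A (7.03), with no overlap between neighbours. In unlabelled libraries the lower tier ran from HSPH1 (20.5) and BAG3 (20.4), which overlapped, through HSPB1 (12.8) and DNAJB1 (11.3), which overlapped too, to DNAJB4 (7.99) and HSPA1A (2.20). These levels divide by all annotated exons of a gene, so genes with many alternative exons, such as HSPH1 and DNAJB1, are understated, and the HSPA1 pair is understated by the uncounted shared reads.

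Pseudogene copies took few fragments. The 32 annotated pseudogenes of the 10 genes held 249 to 279 fragments in all per library, at most 1.12% of the fragments of the genes themselves. Of the 6 tested, 0 were called by edgeR (0 at an unadjusted p under 0.05, 0 by DESeq2). HSP90AA2P had 7.70 and 5.19 CPM in labelled against 5.90 and 10.3 CPM in unlabelled libraries, and HSP90AB3P had 8.05 and 7.41 against 6.68 and 5.43 CPM. Of the HSP90AA1 transcript, 21.4% of 50-base stretches recur in another gene's transcript and 1.04% of 150-base stretches. For HSP90AB1 these shares were 18.8% and 0%, for HSPA8 15.4% and 0%, and for BAG3, DNAJB4 and HSPH1 0% at both lengths.

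The heat shock factors themselves differed little. HSF1, the main activator of these genes, averaged 61.1 CPM in labelled and 61.6 CPM in unlabelled libraries (log2 fold change -0.016 ± 0.13, edgeR adjusted p 0.977), chosen for mention after its value was seen. HSF2, another factor of the family, had 38.2 and 39.1 CPM in labelled against 37.8 and 36.2 CPM in unlabelled libraries (0.063 ± 0.12, adjusted p 0.881). HSF4 had 3.38 and 4.42 against 4.90 and 4.22 CPM (-0.22 ± 0.31, adjusted p 0.807). HSPA6, an HSP70 gene with little expression outside stress and also mentioned after its counts were seen, had 3 and 4 fragments in labelled and 2 and 0 in unlabelled libraries, at or near the 3 fragments below which a count is read as not detected.

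Across the rest of the chaperone network, 9 further lists held 107 genes, of which 99 were tested. edgeR called 0 of them and DESeq2 called 0. In edgeR fits 41 were called without unlabelled replicate 1, where 19% of all genes were, 5 without unlabelled replicate 2 (4.61% of all genes) and 7 with library size alone (14.5%), in either direction. Of the 99, 10 were higher and 1 lower at an unadjusted p under 0.05, against 5.67% and 5.88% of all genes. The list medians lay between -0.076 and 0.16, against 0.27 for the 10 heat shock chaperones, and their difference was not tested. The order did not hold with 1 unlabelled library left out: without unlabelled replicate 1 other heat-inducible genes had a median of 0.49, against 0.42 for the 10 genes, and without unlabelled replicate 2 other HSP70 and HSP110 genes had 0.084, against 0.080. Positive log2 fold changes were found for 74 of the 99, against 48% of all genes. Without unlabelled replicate 2 the list medians lay between -0.096 and 0.084.

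The co-chaperones of HSP90 and HSP70 had a median of 0.11 over 23 genes, with 3 higher at an unadjusted p under 0.05. NUDC, an HSP90 co-chaperone, had 134 and 144 CPM in labelled against 108 and 103 CPM in unlabelled libraries (log2 fold change 0.39 ± 0.13, edgeR adjusted p 0.306). PPID, an HSP90-bound cyclophilin, had 34.6 and 37.1 against 29.6 and 23.5 CPM (0.42 ± 0.14, adjusted p 0.316), and 1427 of its 2516 exon bases overlap ETFDH on the opposite strand. Among 17 other J-domain co-chaperones, with a median of 0.049 and 2 at an unadjusted p under 0.05, DNAJA2 had 79.6 and 96.2 against 73.6 and 57.5 CPM (0.42 ± 0.15, adjusted p 0.342). DNAJC27 had 7.46 and 9.04 against 5.01 and 5.73 CPM (0.63 ± 0.25, adjusted p 0.382). In both lists these genes were higher in both labelled libraries than in either unlabelled one. Without unlabelled replicate 1 edgeR called NUDC (adjusted p 0.000352), PPID (0.000187) and DNAJA2 (4.94e-07), and without unlabelled replicate 2 it called NUDC (0.0151).

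Other HSP70 and HSP110 genes had a median of 0.11 over 6 tested of 8, with 0 at an unadjusted p under 0.05. HSPA4, an HSP110, had 274 and 276 CPM in labelled against 261 and 225 CPM in unlabelled libraries, and HSPA14, a ribosome-bound HSP70, had 42.3 and 39.4 against 34.7 and 36.4 CPM. HSPA4 had a log2 fold change of 0.32 without unlabelled replicate 1, where edgeR called it (adjusted p 0.0210), and of 0.081 without unlabelled replicate 2. TRiC, the ring-shaped chaperonin for actin and tubulin, and its partner prefoldin had a median of 0.092 over 15 genes. The prefoldin subunit PFDN2 had 52.1 and 58.3 CPM in labelled against 38.6 and 34.9 CPM in unlabelled libraries, a log2 fold change of 0.59 ± 0.13 with an edgeR adjusted p of 0.128. It passed the threshold without unlabelled replicate 1 (0.70, adjusted p 1.11e-06), without unlabelled replicate 2 (0.52, 0.000493), with no filter (0.0175) and with the replicate block (0.0216). The TRiC subunit CCT2 had 314 and 328 against 280 and 246 CPM (0.28 ± 0.14, edgeR adjusted p 0.472), and was called without unlabelled replicate 1 (adjusted p 0.00300). Only 3 of 9 other small heat shock proteins were tested, with HSPB6 at -0.52 and HSPB9 at 0.35, both under 6 CPM in all libraries.

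Genes of other heat-inducible proteins had a median of 0.15 over 6 genes and 0 at an unadjusted p under 0.05. Without unlabelled replicate 1 the median was 0.49 with 5 of the 6 called, and without unlabelled replicate 2 it was -0.054 with 0 called. IER5, a stress-responsive regulator of HSF1, had 88.9 and 77.6 CPM in labelled against 77.4 and 55.1 CPM in unlabelled libraries, and the collagen chaperone SERPINH1 had 73.1 and 69.2 against 72.8 and 54.0 CPM. Without unlabelled replicate 1 the log2 fold changes were 0.62 for IER5 and 0.43 for SERPINH1 (edgeR adjusted p 1.83e-06 and 0.00238), and without unlabelled replicate 2 they were 0.11 and -0.030. Chaperones of the endoplasmic reticulum had a median of 0.16 over 14 genes, with 2 higher and 1 lower at an unadjusted p under 0.05. HSPA5, the HSP70 of that compartment, had 348 and 375 CPM in labelled against 278 and 199 CPM in unlabelled libraries (log2 fold change 0.60 ± 0.17, edgeR adjusted p 0.264). It passed the threshold without unlabelled replicate 1 (0.89, adjusted p 2.78e-12), without unlabelled replicate 2 (0.38, 0.0136) and with no filter (0.0116). CRELD2, a stress-inducible protein of the same compartment, had 26.8 and 28.0 against 34.6 and 32.7 CPM (-0.30 ± 0.13, edgeR adjusted p 0.412), with -0.65 and a call with library size alone (adjusted p 0.0183). Mitochondrial chaperones, made from nuclear genes, had a median of 0.12 over 10 genes and 2 higher at an unadjusted p under 0.05. They were the nucleotide exchange factors of the mitochondrial HSP70, GRPEL1 with 84.8 and 91.1 CPM in labelled against 77.4 and 56.9 CPM in unlabelled libraries (edgeR adjusted p 0.381) and GRPEL2 with 118 and 114 against 82.5 and 97.6 CPM (adjusted p 0.344). edgeR called both without unlabelled replicate 1 (0.66 for GRPEL1, adjusted p 2.99e-07, and 0.28 for GRPEL2, 0.0471), and without unlabelled replicate 2 it called GRPEL2 (0.49, 0.000204) and not GRPEL1 (0.19, 0.345). Counting ignored strand, and of these named genes HSPB6, HSF4, HSPA14, NUDC and DNAJC27 share 38.3%, 27.1%, 12.7%, 5.72% and 3.98% of their exon bases with other annotated genes. CRELD2, GRPEL2 and HSF1 share 3.25%, 2.87% and 2.58%. Of the 10 heat shock chaperones, HSP90AA1 and DNAJB4 share 3.9% and 2.1%, besides those given above.

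**Figure D4:**
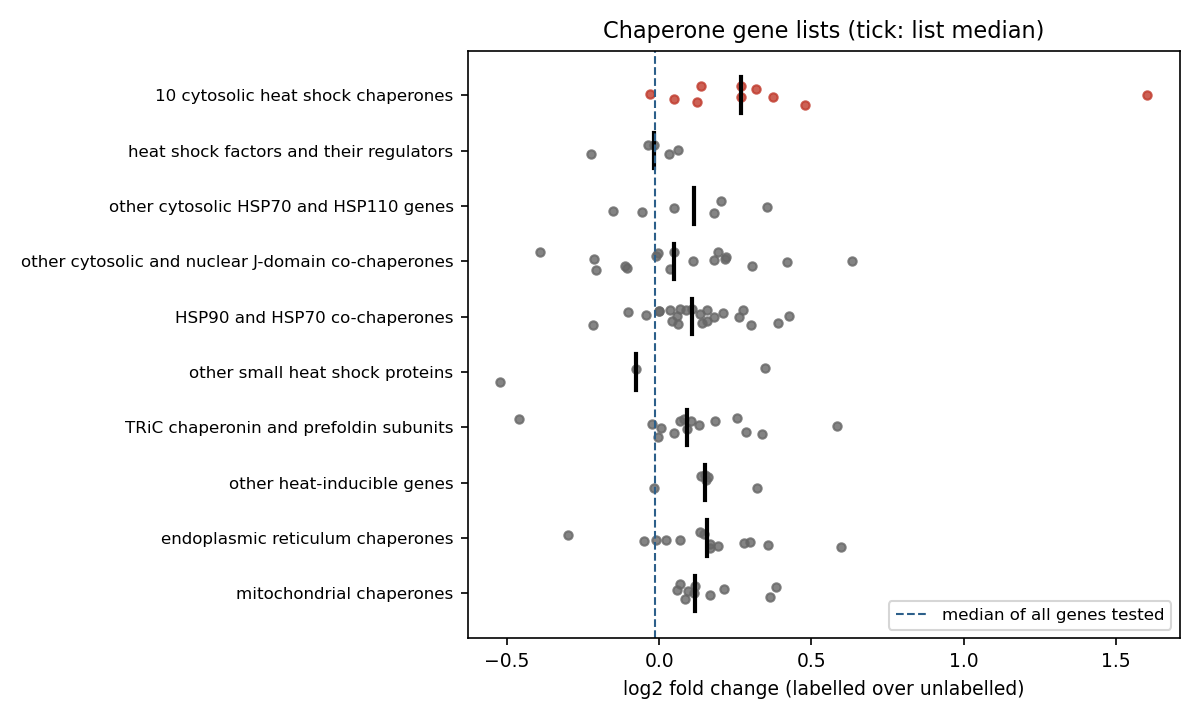
edgeR log2 fold changes of labelled over unlabelled libraries for the tested genes of the 10 heat shock chaperones (red) and of 9 other chaperone lists (grey), 1 point per gene, with a tick at each list's median and a dashed line at the median of all genes tested. The 10 genes have a median of 0.27 with HSPA1A far to the right at 1.60, and the medians of the other lists lie between -0.076 and 0.16, an order that does not hold with either unlabelled library left out.

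The pattern of the summed HSPA1 pair over the 4 libraries was compared with that of 12654 genes with a mean of at least 5 CPM, as the root mean square difference of log2 CPM centred on each gene. SEC24D, ZNF518B and ENSG00000290835 were nearest, at 0.00372, 0.00563 and 0.00603. Of the other 8 chaperone genes HSPA8 was nearest, at 0.0644 and rank 980, and BAG3 farthest, at 0.188. With 4 libraries many genes share such a pattern.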

How the data were processed

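The authors deposited raw counts of fragments for each gene, and a table of counts by assignment status. Per the file headers these came from featureCounts 1.6.4 on GENCODE 44, with both ends mapped, chimeric pairs left out, and no strand or multi-mapping option. The submitters' processing notes name STAR 2.7.9a, GRCh38 and DESeq2 1.42.0. Whether duplicates were removed is not stated there. The deposited exon length per gene, in bases, was used for levels per kilobase. All 62700 identifiers were paired with symbols, except that HSPB11 of the gene lists was not matched.

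Counts were tested with edgeR 4.0.16 (quasi-likelihood, filterByExpr, TMM, no block) in R 4.3.3, with Benjamini-Hochberg adjustment over all 18973 genes at 0.05, after a trial on simulated data. The pair was refitted as 1 gene on the whole table. SE is the log2 fold change over the square root of F. Reads carry no molecular identifiers, so Wilson intervals (SciPy 1.17.1) cover counting error only. DESeq2, other scalings, no filter, a replicate block and leaving out each library were alternatives. The 10 genes, lists and tests were chosen with earlier results of these data known. Named were the 10, the 2 genes with the smallest p per list, 2 pseudogenes by mean CPM, and the 3 nearest patterns. The labels do not say whether replicate numbers pair libraries, and no pairing was assumed (correlation of deviations -0.07). Shared sequence stretches used the longest coding transcript in GENCODE 29.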

Additional observations from a re-analysis of the deposited data

How the results depend on the processing

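Values are log2 fold changes of labelled over unlabelled libraries unless called counts, and causes of the shifts were not tested. Genes called higher over all genes numbered 51, against 27 without mitochondrial genes, 183 with no filter and 140 with the replicate block, and 49 to 2440 with 1 library left out. Genes called lower numbered 3, against 5 with DESeq2 size factors, 2675 with library size alone, 119 with no filter, 12 with DESeq2 and 96 with the replicate block, and 9 to 1545 with 1 library left out. Of the 10 chaperone genes 0 were called higher, against 1 (HSPA1A) with library size alone, with no filter, with DESeq2 and with the replicate block, and 1 to 6 with 1 library left out, while 0 were called lower in each setting with 1 library left out. HSPA1A had 1.26 with library size alone, 1.63 with no filter, 1.67 with DESeq2 and 1.70 with the replicate block, all past the threshold, and 1.08 to 2.74 with 1 library left out. With library size alone values turned negative for HSPA1B (-0.22), HSPA8 (-0.23), HSPH1 (-0.086), HSP90AA1 (-0.31), HSP90AB1 (-0.087), DNAJB1 (-0.036) and the summed pair (-0.15), and likewise for HSF2 (-0.29), HSPA14 (-0.15), HSPA4 (-0.17), HSPB9 (-0.0067), CCT2 (-0.071), IER5 (-0.025) and SERPINH1 (-0.19). With 1 library left out, HSPA1B ranged from 0.052 to 0.27, HSPA8 ranged from -0.042 to 0.35, HSPH1 from 0.11 to 0.49, HSP90AA1 from -0.062 to 0.20, HSP90AB1 from 0.047 to 0.57, DNAJB1 from 0.15 to 0.56, DNAJB4 from 0.30 to 0.48, BAG3 from 0.25 to 0.81, the summed pair from 0.10 to 0.35, HSPB1 from -0.16 to 0.17 (0.07 without labelled replicate 1, 0.17 without unlabelled replicate 1) and SERPINH1 from -0.030 to 0.43. The summed share of the 10 genes differed by -0.0512 percentage points of all assigned fragments and by 0.0563 of nuclear fragments, with -0.0929 to -0.00946 of all assigned fragments when 1 library was left out. The labels do not say whether replicate numbers pair libraries. The deviations of same-numbered libraries had a correlation of -0.07, which with 2 libraries per group cannot settle it. The replicate block changed the call of HSPA1A and PFDN2 among the named genes. Among the 10 genes depth limits HSPA1A most, with 17 fragments in unlabelled replicate 2, and with 2 libraries per group an exact permutation test cannot go below p = 0.333.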
